A study of Mus musculus with 14 samples.

Results

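The genes described here are 9 interferon response genes, Stat2, Irf7, Ifitm3, Bst2, Ifit1, Ifit3, Oasl2, Isg15 and Usp18. They were taken by symbol from the count tables, in which they are 9 of 53465 gene identifiers. RNA of the anterior cingulate cortex, a midline frontal area, was sequenced from 2 inbred strains, AKR/J (AKR) and C57BL/6NJ (B6N). The design text describes mice after observational fear conditioning, in which an observer animal sees a companion being shocked, and naive mice, and the series title concerns affective empathy. The groups were AKR mice after the conditioning (OFL in the labels, 3 libraries), B6N mice after the conditioning (OFL, 3 libraries), naive AKR mice (4 libraries) and naive B6N mice (4 libraries). The labels name no transgene or drug, and give no age. Nothing in the labels ties the libraries of 1 group to different animals, and the p-values therefore reflect the spread among libraries, part or all of which may be technical. Total counts were 13487311 to 14396289 in AKR OFL, 14063573 to 14526253 in B6N OFL, 19073921 to 23782061 in naive AKR and 20583264 to 25780227 in naive B6N libraries. The 8 neuronal markers used to check the tissue (Snap25, Slc17a7 and others) were all detected, with a summed level of 5534 to 9127 CPM over the libraries. CPM are counts scaled by library size and by TMM factors, which align the bulk of the genes between libraries.

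Type I interferons are secreted proteins that bind a receptor made of IFNAR1 and IFNAR2 on nearly every cell type. The receptor's kinases JAK1 and TYK2 phosphorylate STAT2, which joins IRF9 in the complex ISGF3. ISGF3 binds the interferon-stimulated response element (ISRE) in promoters and raises the transcription of antiviral genes, and many of these genes keep a low level in tissue without infection. In brain, microglia and endothelial cells are among the cells known to respond to interferon.

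The promoters of the genes are shown because the pathway acts through an element in promoters. RefSeq (GRCm38.p6) gave a window from 250 bases before to 50 bases after the start for 8 of the 9 genes (all but Usp18). The letters GAAA, any 2 bases and GAAA again, searched on both strands as the core of the ISRE, were found in 6 of the 8 windows, against 3.44% of 32851 promoter windows. In 5 genes the letters lay upstream of the start. In the lines below, which run 5′ to 3′ in the direction of the gene, capitals mark these letters or, where they read on the other strand, their complement.
Isg15, chr4:156200819-156200978, minus strand: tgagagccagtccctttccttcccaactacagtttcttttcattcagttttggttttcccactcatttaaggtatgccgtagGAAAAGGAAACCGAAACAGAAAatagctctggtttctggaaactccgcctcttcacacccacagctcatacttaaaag
Bst2, chr8:71537473-71537632, minus strand: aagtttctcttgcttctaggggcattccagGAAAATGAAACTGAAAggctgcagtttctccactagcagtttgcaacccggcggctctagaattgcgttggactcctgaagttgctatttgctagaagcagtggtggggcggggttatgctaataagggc
Ifit1, chr19:34640729-34640888, plus strand: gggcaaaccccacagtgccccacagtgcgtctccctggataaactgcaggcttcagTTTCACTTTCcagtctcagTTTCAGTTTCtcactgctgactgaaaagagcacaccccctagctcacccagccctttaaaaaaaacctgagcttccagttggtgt
Ifit3, chr19:34583369-34583528, plus strand: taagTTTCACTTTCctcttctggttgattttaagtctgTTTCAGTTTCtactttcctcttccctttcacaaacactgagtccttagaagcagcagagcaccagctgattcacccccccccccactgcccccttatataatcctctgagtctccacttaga
Stat2, chr10:128270258-128270317, plus strand: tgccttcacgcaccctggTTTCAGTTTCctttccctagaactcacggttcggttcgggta
Ifitm3, chr7:141010716-141010742, minus strand: GAAAAGGAAActtctgaGAAACCGAAA
The first 4 lines end at the base before the start. Isg15 held 3 matches that overlap each other between positions -78 and -57, and Bst2 held 2 that overlap between -130 and -115. Ifit1 held 2 separate matches on the other strand, at -104 to -95 and -85 to -76, and Ifit3 held 2 on the other strand, at -156 to -147 and -122 to -113. The match of Stat2 was the farthest from the start, at -222 to -213. Both matches of Ifitm3 lay just after its start, at 3 to 12 and 20 to 29. The letters were not found in the windows of Irf7 and Oasl2.

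The ligands of the pathway were at the limit of detection. Of 21 interferon genes (Ifnb1, the Ifna genes, Ifng, the Ifnl genes and others), 13 had no read in any of the 14 libraries. The other 8 together had 13 reads among 262549926 counts, with at most 1 read of a gene in a library. The 9 response genes had reads in every library. Per kilobase of exon, the highest mean level in naive AKR was that of Stat2, 7.91 ± 0.41 CPM per kilobase, followed by Ifitm3 with 5.48 ± 0.70 and Ifit3 with 4.39 ± 0.62 (SD, n = 4). In naive B6N, Ifitm3 came first with 10.9 ± 1.2 CPM per kilobase, ahead of Stat2 with 6.55 ± 0.13 and Ifit3 with 4.08 ± 0.42 (SD, n = 4). Ifit3 and Bst2, and Bst2 and Isg15, did not differ beyond 1 SD of each in naive B6N, and Stat2 and Ifitm3 did. Ifit1, Irf7, Oasl2 and Usp18 were the 4 lowest in both naive groups, at 0.439 to 0.980 CPM per kilobase in AKR and 0.341 to 0.859 in B6N.

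**Figure D1:**
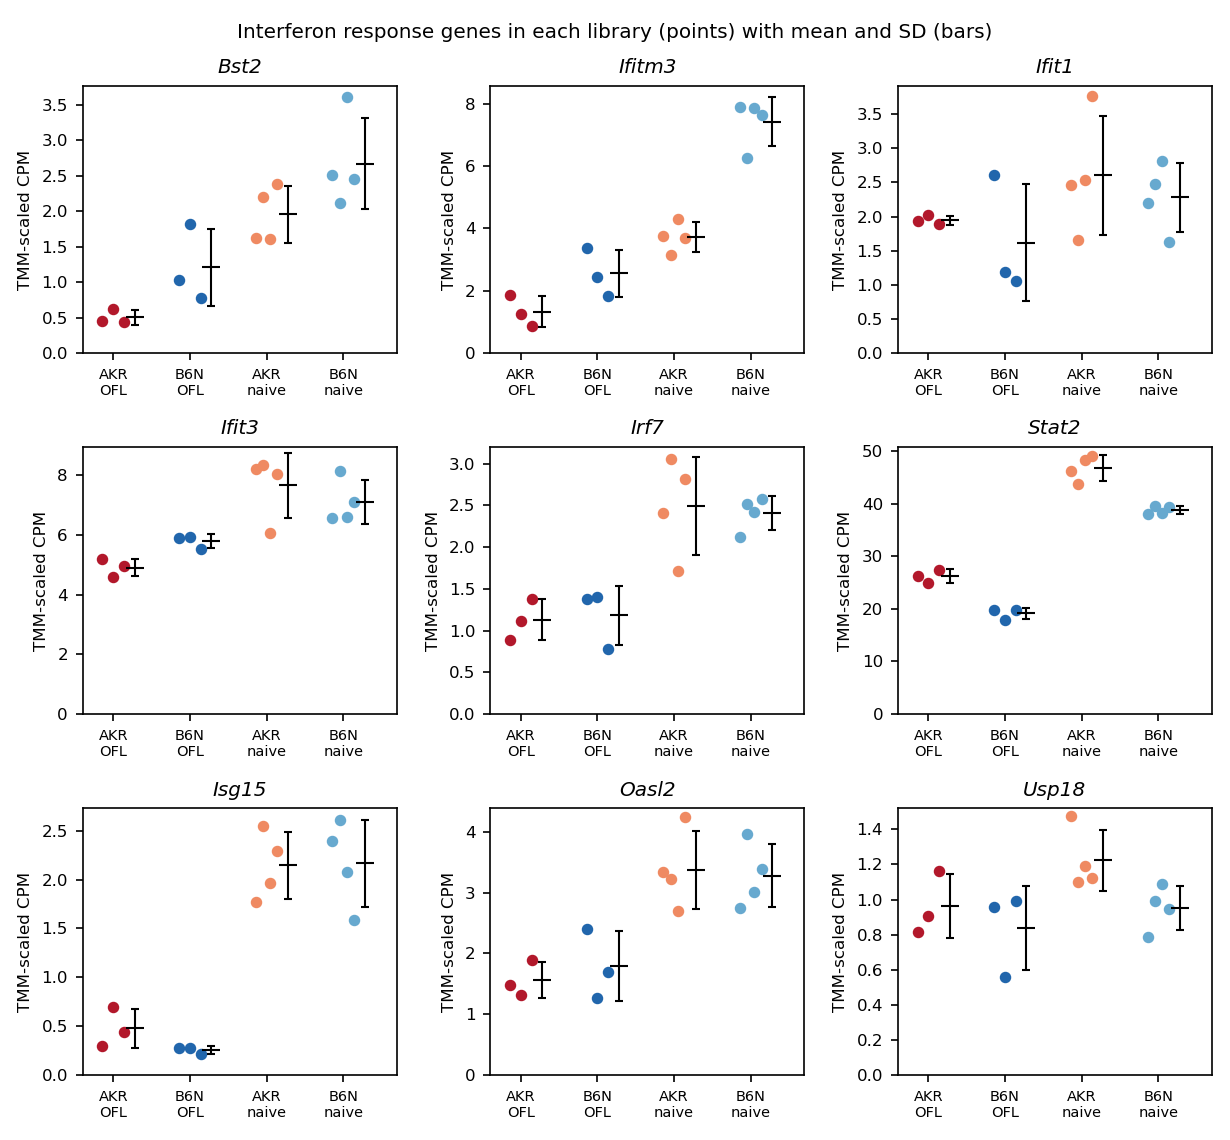
TMM-scaled CPM of the 9 interferon response genes in each library (points), with the mean and SD of each group (bars), for AKR OFL, B6N OFL, AKR naive and B6N naive. Ifitm3 averaged 3.71 CPM in naive AKR and 7.41 CPM in naive B6N libraries without overlap, and Stat2 was higher in AKR than in B6N in both conditions.

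Between the strains, the signal transducer and a membrane factor moved in opposite directions. Stat2 was higher in AKR than in B6N in naive and in OFL libraries, by 1.21-fold and 1.36-fold. Ifitm3 was lower in AKR, by 2.01-fold in naive and 1.94-fold in OFL libraries. Bst2, a second membrane factor, was lower in AKR among OFL libraries, by 2.38-fold. Among naive libraries 1 of the 9 genes was higher and 1 lower, against 18.3% higher and 19.5% lower (37.8% together) of the 17645 genes tested. Among OFL libraries 1 of 8 tested genes was higher and 2 were lower, against 7.5% higher and 8.86% lower (16.4% together) of 17994 genes. The median log2 difference of the 9 genes was 0.07 in naive libraries, against 0.01 over all genes tested. In OFL libraries it was -0.14 over 8 genes, against 0.00 over all genes. In both conditions the called genes were thus few and mixed in direction. Their share was below that of all genes in naive libraries and above it in OFL libraries, where the calls of Ifitm3 and Bst2 were lost in some settings.

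Stat2 (ENSMUSG00000040033, chr10:128270559-128292849, plus strand, on GRCm38 with GENCODE vM21, as for all genes here) encodes the subunit of ISGF3 that recruits the transcription machinery. It had 46.2, 43.7, 48.4 and 49.1 CPM in naive AKR, against 38.1, 39.6, 38.3 and 39.4 CPM in naive B6N libraries. After OFL it had 26.2, 24.9 and 27.5 CPM in AKR, against 19.8, 17.9 and 19.7 CPM in B6N libraries. Every AKR library was above every B6N library of its condition. The log2 difference (AKR minus B6N) was 0.27 ± 0.05 in naive libraries (SE, edgeR adjusted p = 0.00014) and 0.44 ± 0.08 in OFL libraries (SE, edgeR adjusted p = 0.00044). With 256 to 1135 reads in each library, Stat2 was the best counted of the 9 genes, and it was called in each of the other settings tried. Irf7 (ENSMUSG00000025498, chr7:141262706-141266481, minus strand) encodes the transcription factor that drives Ifna genes once interferon signalling has begun. Its levels ran from 1.71 to 3.05 CPM in naive AKR and from 2.12 to 2.58 CPM in naive B6N, and the strain difference was 0.07 with a 95% interval of -0.25 to 0.39 (log2). In OFL libraries it was -0.08, with an interval of -0.66 to 0.51. Neither difference was called.

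Ifitm3 (ENSMUSG00000025492, chr7:141009586-141010770, minus strand) encodes an endosomal membrane protein that blocks the fusion of enveloped viruses. It had 3.74, 3.14, 4.30 and 3.68 CPM in naive AKR, against 7.90, 6.25, 7.85 and 7.64 CPM in naive B6N libraries. After OFL it had 1.85, 1.25 and 0.873 CPM in AKR, against 3.36, 2.45 and 1.84 CPM in B6N libraries. The naive groups stood apart, and the OFL groups touched, the highest AKR library lying just above the lowest B6N library. The log2 difference was -1.005 ± 0.114 in naive libraries (SE, edgeR adjusted p = 2.19e-06) and -0.95 ± 0.28 in OFL libraries (SE, edgeR adjusted p = 0.0228). The OFL call, on 12 to 49 reads a library, was lost in 5 of the other settings, with DESeq2 (adjusted p = 0.0691) and when AKR OFL library 2 or 3 or B6N OFL library 1 or 2 was left out (edgeR adjusted p = 0.0647 to 0.116). Of the 31-base stretches of its exons, 20.5% also occur in other genes, among them its neighbours Ifitm1 and Ifitm2, so its counts are uncertain to that extent. Neither neighbour was called between the strains. Ifitm1 averaged 2.101 ± 0.861 CPM in naive AKR and 2.79 ± 0.38 CPM in naive B6N, and Ifitm2 averaged 1.61 ± 0.10 and 1.79 ± 0.47 CPM in the same groups (SD, n = 4 each).

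Bst2 (ENSMUSG00000046718, chr8:71534255-71537456, minus strand) encodes tetherin, which holds budding virions at the cell surface. It had 1.62, 2.20, 1.61 and 2.38 CPM in naive AKR, against 2.52, 2.11, 3.60 and 2.45 CPM in naive B6N libraries. After OFL it had 0.445, 0.627 and 0.437 CPM in AKR, against 1.03, 1.82 and 0.779 CPM in B6N libraries. The naive groups overlapped and the OFL groups did not. The log2 difference was -0.42 ± 0.18 in naive libraries (SE, edgeR adjusted p = 0.0815, not called) and -1.25 ± 0.38 in OFL libraries (SE, edgeR adjusted p = 0.0280). Both calls turned with single libraries. The OFL call was lost with DESeq2 (adjusted p = 0.120) and without AKR OFL library 1 or 3 or B6N OFL library 2 (edgeR adjusted p = 0.0940 to 0.220). The naive difference passed the threshold without AKR naive library 4, without B6N naive library 2 and with no count filter (edgeR adjusted p = 0.0352 to 0.0499). Bst2 had 6 to 9 reads in the AKR OFL libraries.

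**Figure D2:**
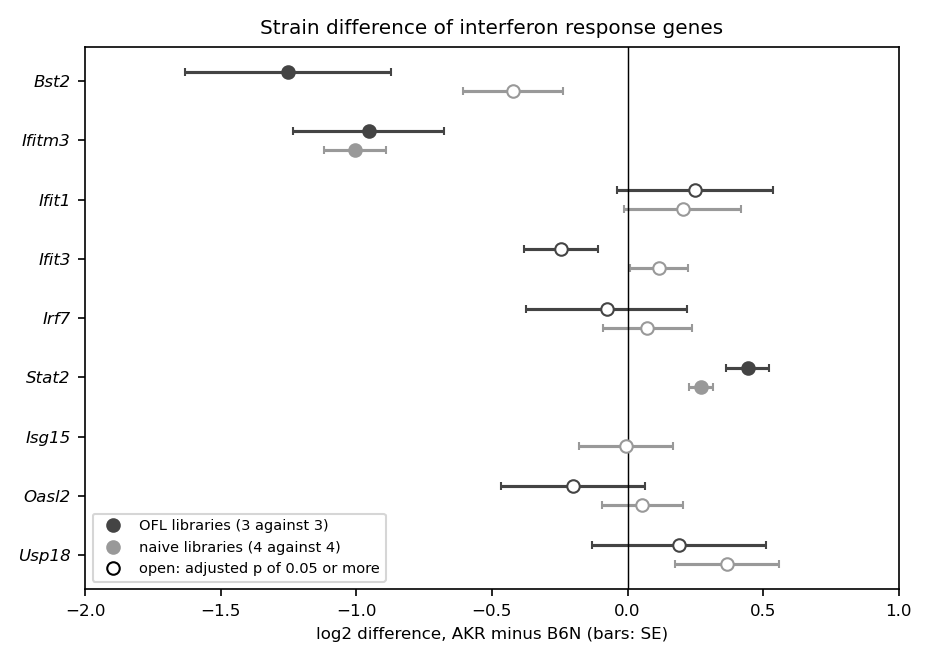
Log2 difference between AKR and B6N (horizontal axis, bars give the SE) of each gene in OFL and in naive libraries, with open points for genes at an adjusted p of 0.05 or more. Stat2 lies right of 0 and Ifitm3 left of 0 in both conditions, and Isg15 has no OFL point because it did not pass the count filter there.

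None of the RNA-binding effectors Ifit1, Ifit3 and Oasl2 was called between the strains. Ifit1 (ENSMUSG00000034459, chr19:34640871-34650009, plus strand) and Ifit3 (ENSMUSG00000074896, chr19:34583531-34588731, plus strand) encode related proteins, of which IFIT1 binds viral RNA that lacks host-type cap marks. The strain difference of Ifit1 was 0.20 in naive libraries (log2, 95% interval -0.22 to 0.63) and 0.25 in OFL libraries (-0.31 to 0.81). The OFL value ran from 0.03 to 0.77 over the other settings, with no call (lowest adjusted p = 0.0561). Ifit3 had 8.22, 8.35, 6.06 and 8.05 CPM in naive AKR, against 6.57, 8.14, 6.62 and 7.13 CPM in naive B6N libraries. After OFL it had 5.19, 4.60 and 4.95 CPM in AKR, against 5.90, 5.95 and 5.52 CPM in B6N libraries. The OFL groups did not overlap, yet the difference of -0.25 ± 0.14 (log2, SE) was not called (edgeR adjusted p = 0.256). Of the 31-base stretches of Ifit3, 61.8% also occur in its copy Ifit3b, so reads of the copies cannot be fully told apart. With both counted as 1 gene, a setting added after the data were seen, the strain difference was 0.02 in naive and -0.11 in OFL libraries. Oasl2 (ENSMUSG00000029561, chr5:114896936-114912234, plus strand) encodes a protein of the oligoadenylate synthetase family. Its strain difference was 0.06 in naive (-0.24 to 0.35) and -0.20 in OFL libraries (-0.72 to 0.32).

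Isg15 and Usp18 were not called between the strains either, Isg15 being tested in naive libraries only. Isg15 (ENSMUSG00000035692, chr4:156199424-156200818, minus strand) encodes a ubiquitin-like protein that is attached to other proteins. Usp18 (ENSMUSG00000030107, chr6:121245906-121270917, plus strand) encodes the protease that removes it and that also dampens the interferon receptor. Isg15 had 1.77, 2.54, 1.97 and 2.29 CPM in naive AKR, against 2.40, 2.61, 2.07 and 1.59 CPM in naive B6N libraries. The groups overlapped and the difference was -0.01 (log2, 95% interval -0.34 to 0.33). After OFL it had 4, 10 and 6 reads in AKR and 4, 4 and 3 reads in B6N libraries, and it did not pass the count filter for a strain test. Usp18 ran from 1.10 to 1.48 CPM in naive AKR and from 0.786 to 1.09 CPM in naive B6N. Its groups barely stood apart, and the difference of 0.37 ± 0.19 (log2, SE) was not called (edgeR adjusted p = 0.155). In OFL libraries it was 0.19 (95% interval -0.44 to 0.82). With Stat2, Ifitm3 and Usp18, 3 of 9 genes had no overlap between the strains in naive libraries, against 34.7% of all genes tested. In OFL libraries it was 3 of 8 (Bst2, Ifit3 and Stat2), against 31.2%.

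Markers of other cells also differed between the strains. Over all genes tested 18.3% were higher and 19.5% lower in naive AKR, and in OFL libraries 7.5% were higher and 8.86% lower. The naive strain comparison called 4 of 5 blood markers (haemoglobin genes and Alas2) lower in AKR, with a summed level of 18.9 to 33.2 CPM in naive AKR and 47.5 to 55.7 CPM in naive B6N libraries. After OFL the same markers summed to 35.2 to 46.3 CPM in AKR and 75.8 to 97.7 CPM in B6N libraries. Part of this gap lay in 2 copied genes whose reads can be shared with other copies, Hba-a2 with 0.153 CPM in naive AKR and 9.02 CPM in naive B6N, and Hbb-bt with 0.407 CPM in naive AKR and 4.22 CPM in naive B6N. Hba-a1 was not called (-0.30, edgeR adjusted p = 0.119). Of the peripheral myeloid markers tested, 3 of 4 were lower in naive AKR, with a summed level of 9.45 to 12.8 CPM in naive AKR and 15.7 to 17.7 CPM in naive B6N. In OFL libraries 1 of 4 was lower, and the sums of 15.4 to 18.6 CPM in AKR and 18.3 to 19.7 CPM in B6N overlapped. Of 10 brain endothelial markers, 3 were higher and 3 lower in naive AKR, with sums of 406 to 464 CPM in AKR and 397 to 425 CPM in B6N. Of 10 microglial markers, 3 were higher and 4 lower, with sums of 342 to 401 CPM in AKR and 380 to 431 CPM in B6N. No marker of these lists was without reads. Their part in the differences of Ifitm3, Bst2 and Stat2 was not tested, and in bulk tissue fewer cells of a type and less RNA per cell cannot be told apart. Loss of AKR reads in alignment was not tested for these markers either.

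The wider pathway was described by gene lists. The interferon-inducible GTPases, which attack vacuoles that hold microbes, and the Ifi200 family, many of them DNA-binding proteins, were lower in AKR where they were called. Of 13 GTPases tested in naive libraries 4 were lower and 0 higher, and of 10 tested in OFL libraries 4 were lower and 0 higher, with all 10 differences below 0. Over all genes tested 19.5% were lower in naive and 8.86% in OFL libraries, and 49.4% of the differences were below 0 in OFL libraries. In naive libraries 7 of the 13 GTPase differences were below 0 (53.8%), against 48.9% over all genes tested. Igtp averaged 2.33 ± 0.26 CPM in naive AKR and 3.80 ± 0.26 CPM in naive B6N (SD, n = 4 each), and 1.23 ± 0.17 CPM in AKR OFL and 3.33 ± 0.23 CPM in B6N OFL (SD, n = 3 each). Its log2 difference was -0.71 in naive and -1.44 in OFL libraries, and that of Irgm2 was -0.99 and -1.19 (edgeR adjusted p at most 0.0012 for both genes). Iigp1 differed by -0.98 in naive and -1.37 in OFL libraries (edgeR adjusted p = 0.0115 and 0.0130), and the OFL call was lost with DESeq2 and without AKR OFL library 2. Tgtp2, which has the near-identical copy Tgtp1 and so is uncertain, differed by -2.33 in naive libraries. No gene of the Gbp branch of the GTPases was called in naive libraries. In OFL libraries 1 was called, Gbp9 (-0.51, edgeR adjusted p = 0.0401), and that call was lost in 6 of the other settings. The median over the GTPases tested was -0.21 in naive and -0.30 in OFL libraries.

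Of 12 Ifi200 genes, 2 could be tested, and both were lower in AKR in both conditions. Mndal had 5 reads in the 4 naive AKR libraries together, against 105 in naive B6N, and 2 reads in AKR OFL, against 47 in B6N OFL libraries. Ifi203 differed by -1.14 in naive and -1.07 in OFL libraries (edgeR adjusted p = 0.0013 and 0.0498), and the OFL call was lost in 6 of the other settings, among them those without AKR OFL library 1 or 3 or B6N OFL library 2 or 3. Among the antiviral effectors, Slfn8, of the schlafen family, had 1 read in naive AKR libraries, against 100 in naive B6N, and 1 read in AKR OFL, against 55 in B6N OFL libraries. The loss of AKR reads on the C57BL/6 genome was not tested for these low AKR counts either. The family members share sequence, and their values carry that limit too.

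Of 46 antiviral effectors tested in naive libraries, 6 were higher and 6 lower in AKR, and of 40 tested in OFL libraries 3 were higher and 7 lower. Over all genes tested 18.3% were higher and 19.5% lower in naive AKR (37.8% together). In OFL libraries 7.5% were higher and 8.86% lower (16.4% together). The counts of each list given here have to be read beside these shares. Tor3a, a torsin-family ATPase gene that interferon induces, was higher in AKR by 0.94 ± 0.08 in naive and 1.47 ± 0.13 in OFL libraries (log2, SE, edgeR adjusted p = 3.94e-08 and 6.88e-08). Cmpk2, a mitochondrial nucleotide kinase gene, was higher by 0.47 in naive and 0.29 in OFL libraries (log2, edgeR adjusted p = 1.85e-06 and 0.0082). Ly6a, a surface antigen gene, had -0.65 in naive libraries and -0.10 in OFL libraries, where it was not called (edgeR adjusted p = 2.45e-07 and 0.615). Trim30a, a tripartite-motif family gene, was lower, with differences of -0.79 in naive and -1.02 in OFL libraries (log2, edgeR adjusted p = 0.00099 and 0.0012). Apobec3, a cytidine deaminase gene that restricts retroviruses, had -1.15 in OFL libraries and -0.18 in naive libraries, where it was not called (edgeR adjusted p = 0.0013 and 0.284). Of the receptor and JAK-STAT genes, 1 of 15 was higher and 2 were lower in naive AKR, and 1 of 14 was higher and 0 lower in OFL libraries. Ifnar1, a receptor chain, was the higher one in both, by 0.12 and 0.16 (edgeR adjusted p = 0.0215 and 0.0434, lost in naive libraries without AKR library 4 or B6N library 3 or 4, and in OFL libraries in 9 settings, with DESeq2, no count filter, the replicate block and without any 1 of the 6). Irf9, the ISGF3 partner of STAT2, was lower in naive AKR (log2 difference -0.24, edgeR adjusted p = 0.0218, lost without AKR naive library 1 or 4 or B6N naive library 1), and so was the feedback inhibitor Socs3 (-0.44). Of 15 nucleic acid sensor genes 1 was higher and 5 were lower in naive AKR, among them the RNA sensor Tlr7 (-0.83) and the adaptor Traf3 (-0.30), and 1 of 14 was lower in OFL libraries (Tlr7, -0.50, lost in 7 of the other settings, with DESeq2, in 1 fit of all 14 libraries and without any 1 OFL library but B6N library 2). Of 7 Irf genes 2 were lower (among them Irf3, -0.38) and 0 higher in naive AKR, and of 3 genes of IRF2-binding proteins on the same list 1 was higher (Irf2bp1, 0.27). In OFL libraries edgeR called 0 of 9 genes of that list and DESeq2 also 0, with 2 at an unadjusted p under 0.05. Of 8 genes of ISG15 conjugation, 1 was lower in naive libraries (Arih1, -0.16) and edgeR and DESeq2 called 0 in OFL libraries, with 1 at an unadjusted p under 0.05.

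**Figure D3:**
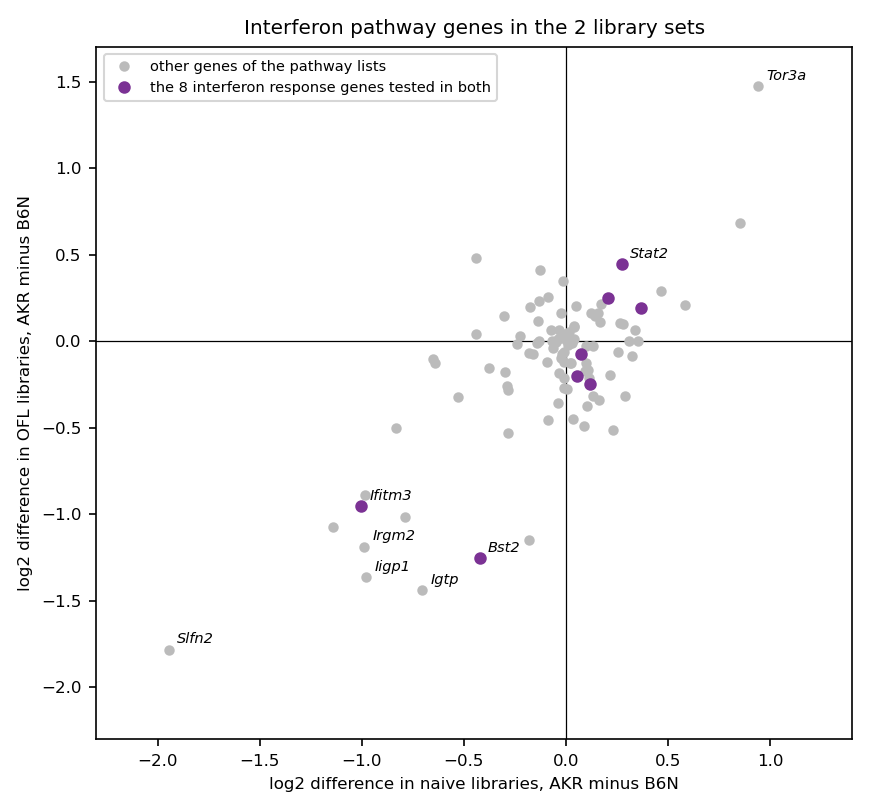
Log2 difference between AKR and B6N in naive (horizontal axis) and OFL libraries (vertical axis) for 104 genes of the pathway lists tested in both sets, with 8 of the 9 interferon response genes in purple. Igtp, Irgm2 and Iigp1 lie to the lower left beside Ifitm3, Tor3a to the upper right, and Slfn8 and Mndal, with 1 to 5 reads in AKR groups, lie outside the plotted range.

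Between the conditions, 7 of the 9 genes were lower in OFL than in naive libraries in AKR, and the same count held in B6N. The median log2 difference of the 9 genes (OFL minus naive) was -1.12 in AKR and -1.02 in B6N, against -0.01 and 0.00 over all genes tested. This has to be read against the background: in AKR 38.8% of 20291 genes were lower and 39.8% higher (78.7% together), and in B6N 38.4% were lower and 40.0% higher (78.4% together). The OFL and naive counts were deposited as separate tables with different depths, and no label ties a library of one to the other, so the conditioning and the library set cannot be told apart. Differences also ran with gene length, though not steadily. Protein-coding genes with under 1000 bases of exon had a median log2 difference of -0.41 in both strains, and in those with 8000 bases or more it was 0.40 (AKR) and 0.37 (B6N). The lowest median was that of genes with 1000 to 2000 bases, -0.53 in AKR and -0.50 in B6N. Ifitm3, Isg15 and Bst2 are in the class under 1000 bases, with 678, 756 and 903 bases. All 7 called genes lay below the median of their own length class in AKR. In B6N 6 of the 7 did, and Ifit3 lay above it. These genes were called because they were lower, so such a position was largely set in advance. Of the genes not called, Ifit1 (-0.42 in AKR, -0.48 in B6N) lay below the median of its class in both strains. Usp18 (-0.34 and -0.17), of the same class, lay above that median (-0.40 in AKR, -0.37 in B6N).

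Isg15 differed most. Its levels in OFL libraries were 0.297, 0.697 and 0.437 CPM in AKR and 0.274, 0.280 and 0.212 CPM in B6N, far below the naive levels of 1.59 to 2.61 CPM given above. The log2 difference was -2.15 ± 0.29 in AKR and -3.05 ± 0.34 in B6N (SE, edgeR adjusted p = 2.38e-07 and 5.28e-09). These OFL levels rest on 3 to 10 reads a library, and 12.8% of the 31-base stretches of Isg15 also occur in other genes. Ifitm3 differed by -1.48 ± 0.23 in AKR and -1.53 ± 0.17 in B6N, and Bst2 by -1.95 ± 0.34 and -1.13 ± 0.25 (SE, edgeR adjusted p at most 0.00024). Irf7 averaged 1.13 ± 0.25 CPM in AKR OFL and 2.50 ± 0.59 CPM in naive AKR, and 1.18 ± 0.35 CPM in B6N OFL and 2.41 ± 0.20 CPM in naive B6N libraries (SD). Its log2 difference was -1.16 in AKR and -1.02 in B6N, and that of Oasl2 was -1.12 and -0.87 (edgeR adjusted p at most 0.0006). Stat2, with 5926 bases of exon, differed by -0.84 ± 0.06 and -1.02 ± 0.06 (SE), where genes of 4000 to 8000 bases had a median of -0.08 in both strains. In each of these 6 genes, and in Ifit3, every OFL library was below every naive library of its strain. Of all genes tested, 37.8% in AKR and 37.4% in B6N lay below in this way, and 76.7% in each strain had no overlap in either direction.

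Ifit3 was lower by a smaller amount, with -0.65 ± 0.13 in AKR and -0.30 ± 0.12 in B6N (SE, edgeR adjusted p = 4.73e-05 and 0.0304). The B6N call was lost in 7 of the other settings, among them DESeq2, both other scalings and the fits without B6N naive library 2 or any 1 of the 3 B6N OFL libraries (adjusted p = 0.0504 to 0.102). With Ifit3b added it was -0.40 (edgeR adjusted p = 0.00092). Ifit1 and Usp18 were not called. Ifit1 averaged 1.95 ± 0.07 CPM in AKR OFL and 2.60 ± 0.87 CPM in naive AKR, and 1.62 ± 0.86 CPM in B6N OFL and 2.28 ± 0.50 CPM in naive B6N libraries (SD). Its difference passed the threshold in AKR without AKR naive library 2, and in B6N without B6N OFL library 1 or with no count filter. Usp18 differed by -0.34 (95% interval -0.82 to 0.15) in AKR and -0.17 (-0.69 to 0.35) in B6N (log2).

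**Figure D4:**
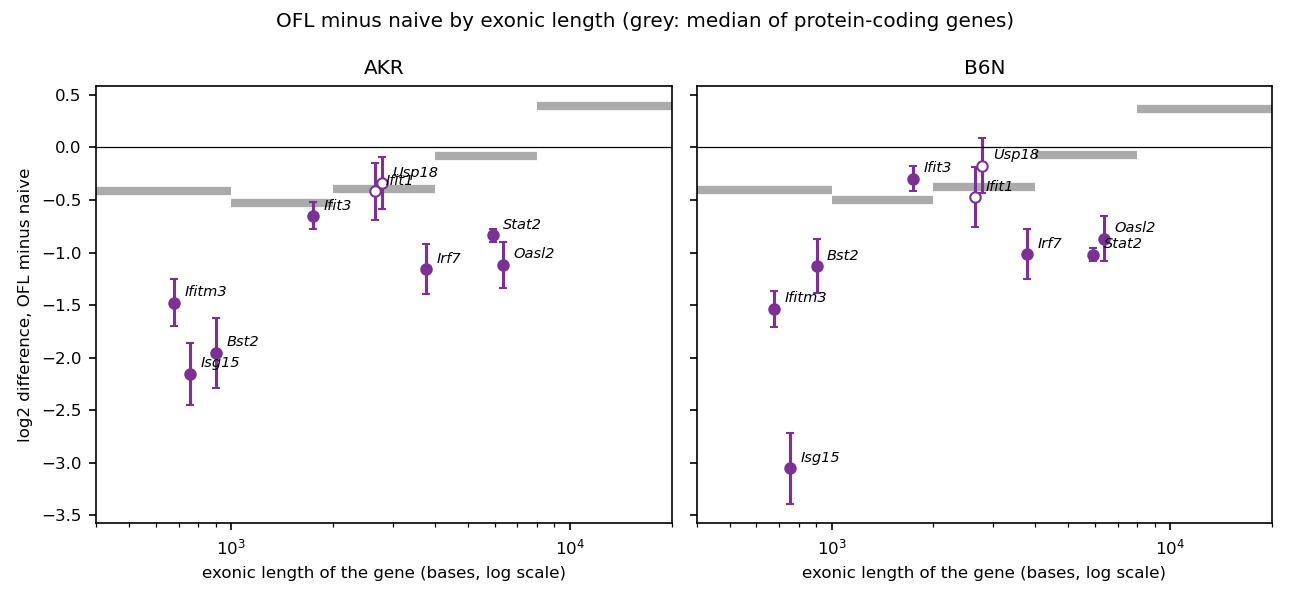
Log2 difference between OFL and naive libraries (vertical axis, bars give the SE) against the exonic length of each gene (horizontal log axis), for AKR and B6N, with grey bars for the median of all protein-coding genes of a length class and open points for genes not called. Isg15, Bst2 and Ifitm3, the 3 shortest genes, have the 3 lowest values, and Stat2 and Oasl2 lie below the median of long genes.

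A difference between the strains in this change was not detectable for any of the 9 genes. In the test of that difference (change in AKR minus change in B6N) edgeR called 0 of 9, against 5.15% of 20291 genes (3.61% with a higher and 1.54% with a lower change in AKR). Stat2 had an unadjusted p of 0.0441 and no other of the 9 was under 0.05, and DESeq2 also called 0. The largest values were 0.90 for Isg15 (95% interval -0.18 to 1.98) and -0.83 for Bst2 (-1.72 to 0.07). For Stat2 it was 0.18 (0.01 to 0.35) and for Ifit3 -0.35 (-0.70 to -0.00), before adjustment. Over the other settings the value ran from 0.52 to 1.14 for Isg15 and from -1.06 to -0.41 for Bst2. It was 0.06 for Ifitm3 (-0.57 to 0.68) and for Ifit1 (-0.73 to 0.84), -0.14 for Irf7 (-0.83 to 0.55), -0.25 for Oasl2 (-0.87 to 0.38) and -0.17 for Usp18 (-0.89 to 0.55). Among the 9 genes the intervals of Isg15 and Bst2 alone reach past 1 log2 unit.

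Other genes of the pathway also differed between the conditions, in both directions. Over all genes 38.8% were lower and 39.8% higher in AKR, and 38.4% were lower and 40.0% higher in B6N. Of 46 antiviral effectors, 22 were lower and 7 higher in AKR, and 22 were lower and 12 higher in B6N. Ly6e, a surface protein gene that restricts coronaviruses, was lower by 2.90-fold in AKR and 2.96-fold in B6N, and Lgals9, a galectin gene, by 3.35-fold and 3.39-fold. Pnpt1, a mitochondrial RNA exonuclease gene, was higher by 0.67 in AKR and 0.55 in B6N. Of 16 receptor and JAK-STAT genes 7 were lower and 3 higher in AKR, and 9 were lower and 4 higher in B6N. Jak2, a kinase gene of the pathway, was higher by 0.65 in AKR and 0.50 in B6N, and Ifnar1 by 0.27 and 0.22. Of 15 sensor genes 8 were lower and 2 higher in AKR and 7 were lower and 2 higher in B6N. The adaptor Mavs, which relays RNA sensing, differed by -0.74 and -1.09, and the DNA sensor Tlr9 by -1.80 and -2.20. Of 8 ISG15 conjugation genes 3 were lower and 4 higher in each strain. Of 12 GTPases 4 were lower and 0 higher in AKR, and 2 were lower and 1 higher in B6N, and of 2 Ifi200 genes edgeR and DESeq2 called 0 in each strain, with 0 at an unadjusted p under 0.05. Of 7 Irf genes 3 were lower in each strain (Irf1, Irf3 and Irf8) and 0 higher. Of 3 genes of IRF2-binding proteins on the same list 2 were lower, and Irf2bp2 was higher (1.08 in AKR and 1.22 in B6N).

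Cell type markers differed between the conditions too. In AKR 9 of 10 microglial markers were lower after OFL and 1 was higher, and in B6N 7 were lower and 1 was higher, beside 38.8% and 38.4% of all genes lower. Their summed level was 298 to 315 CPM in AKR OFL and 342 to 401 CPM in naive AKR libraries. Of 10 brain endothelial markers 7 were lower and 1 higher in AKR, and 7 were lower and 2 higher in B6N. Their sums were 346 to 353 CPM in AKR OFL and 406 to 464 CPM in naive AKR. Of 8 neuronal markers 7 were lower in each strain, with sums of 5675 to 5874 CPM in AKR OFL and 8690 to 8885 CPM in naive AKR. Of 6 oligodendrocyte markers 5 were lower and 0 higher in AKR, and 3 were lower and 0 higher in B6N. Of 4 choroid plexus and ependymal markers tested 3 were lower in AKR and 2 in B6N, with 0 higher. Of 5 striatal markers 4 were lower and 1 higher in each strain. Of 4 markers of T, B and plasmacytoid dendritic cells tested 3 were lower and 1 higher in each strain. The remaining lists were mixed or higher. Of 5 blood markers 3 were higher and 0 lower in each strain, beside 39.8% and 40.0% of all genes higher. Of 5 peripheral myeloid markers tested 2 were higher and 1 lower in AKR, and 1 was higher and 1 lower in B6N. Of 7 astrocyte markers 4 were lower and 1 higher in AKR, and 5 were lower and 2 higher in B6N. The astrocyte sums were 3973 to 4075 CPM in AKR OFL and 3010 to 3554 CPM in naive AKR. Most of each sum was Slc1a2, which averaged 3208 CPM in AKR OFL and 2142 CPM in naive AKR. The part of these markers in the lower levels of the 9 genes was not tested.

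Within the groups, the genes rose and fell together only in part. For each library the deviation of log2 CPM from its group mean was taken, and each gene was set against the mean of the other 8 over the 14 libraries, which share depth and scaling. Pearson's r was 0.62 for Ifit1, 0.48 for Oasl2, 0.46 for Irf7 and 0.27 for Ifit3, and it lay between -0.05 and 0.11 for the other 5. The genes whose deviations were most like the mean of the 9 were Tmem8 (r = 0.90), Ldb3 (0.86), Lrig3 (0.85), Ccdc163 (0.85) and Rbck1 (0.85). They were picked as the highest of all genes tested, and the values are a description.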

How the data were processed

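Messenger RNA was counted in 14 libraries of mouse anterior cingulate cortex. Per the labels' protocols, total RNA was extracted with Trizol and libraries were made with the TruSeq RNA kit v2. Per the submitters' processing notes, the tools included TopHat2 2.1.1, cutadapt 2.7, HTSeq, CASAVA and edgeR, on the build GRCm38, and the counting mode and annotation are not given in the sources used here. The authors deposited raw counts per Ensembl gene in 2 tables, for naive and OFL libraries, and these were the input. The authors also deposited CPM values per sample, which gave back whole reads for 100% of values within 0.1 read and were tried as an alternative input. The design had assumed that these sample tables held counts. GENCODE vM21 (GRCm38) named 53274 of 53465 identifiers. Of the exonic bases of Irf7, 1.19% lie under an exon of the other strand, and of Usp18 4.44%. The other 7 genes have none.

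Counts were tested with edgeR 4.0.16 (R 4.3.3, limma 3.58.1): filterByExpr by group, TMM, the two-sided quasi-likelihood F-test, Benjamini-Hochberg adjustment over all genes tested, and a threshold of 0.05. The strains (AKR minus B6N) were compared in separate fits of the OFL and the naive libraries. Conditions (OFL minus naive) and their interaction came from 1 fit of 14 libraries. Levels are TMM-scaled CPM, and 95% intervals are normal intervals from the SE. Biological coefficients of variation common to all genes were 0.0456 (OFL) and 0.0446 (naive). On simulated counts between 97% and 100% of genes changed by 2-fold and between 76% and 98% of genes changed by 1.5-fold were recovered, and between 4.43% and 6.16% of calls were false. The changed genes were drawn only from genes above a floor of mean count. Over the 14 libraries Usp18, Isg15, Bst2, Irf7 and Ifit1 lay below that floor, and over the OFL libraries Ifitm3 and Oasl2 did too. The recovered shares therefore do not cover these genes. Alternatives were DESeq2 1.42.0, other scalings and filters, other sets of libraries in the fit, a replicate block and leaving out each library.

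The 9 genes, the pathway and marker lists and the tests were chosen with earlier results of these data known. All 9 genes are given in every comparison, and from each other list the counts and some of the up to 4 called genes with the smallest p. No columns of the count tables were left out. No replicate pair agreed within counting noise.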

Additional observations from a re-analysis of the deposited data

Results flagged for a closer look

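In naive B6N libraries 1 Ifitm3 value, 6.25 CPM in library 2, stood apart from the other 3, the gap being 0.841 of the group's range. In naive AKR libraries 1 Ifit3 value, 6.06 CPM in library 3, stood apart in the same way, with a gap of 0.868 of the range. Over the 18 groups of 4 libraries looked at, chance alone flags about 1 in 20.

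In 8 genes of the pathway lists the change (OFL minus naive) differed between AKR and B6N in the interaction test of edgeR. Over all genes, 5.15% of 20291 were called (3.61% higher and 1.54% lower). Of 46 antiviral effectors 3 were higher and 1 lower, and of 12 GTPases 1 was higher and 1 lower. Of 15 sensor genes 1 was higher, and of 16 receptor and JAK-STAT genes 1 was lower. The other lists had 0 called. The difference was 0.56 for Ly6a (log2, adjusted p = 0.0064), with 10.4 CPM in AKR OFL and 18.6 CPM in naive AKR, and 11.04 CPM in B6N OFL and 29.3 CPM in naive B6N libraries. It was 0.55 for Helz2, a helicase gene (edgeR adjusted p = 0.0080), with 14.7 CPM in AKR OFL and 15.8 CPM in naive AKR, and 11.01 CPM in B6N OFL and 17.3 CPM in naive B6N. For Traf3 it was 0.46 (edgeR adjusted p = 9.5e-05), with 89.0 CPM in AKR OFL and 82.8 CPM in naive AKR, and 80.0 CPM in B6N OFL and 102 CPM in naive B6N. These 3 were called in each of the other settings. The differences of 0.55 for Tor3a and 2.94 for Tgtp2 were each lost in 3 settings that left out 1 OFL library (edgeR adjusted p up to 0.0925), and Tgtp2 rests on 8 to 71 reads a group. Those of -0.96 for Apobec3, -0.49 for Ifnar2 and -0.73 for Gbp9 were each lost in 7 to 9 of the settings (adjusted p up to 0.117).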

How the results depend on the processing

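No difference of the 9 genes that was called changed sign in any setting. The strain calls of Ifitm3 in naive libraries (log2 difference -1.08 to -0.93) and of Stat2 in naive (0.25 to 0.31) and OFL libraries (0.39 to 0.48) were kept in every setting, as were the OFL minus naive calls of Isg15, Ifitm3, Bst2, Irf7, Oasl2 and Stat2 in both strains. Over the 9 genes and the named list genes, 1985 alternative values kept their side of the threshold, 93 lost a call and 6 gained one. The count of the 9 genes called between the strains in OFL libraries was 1 with DESeq2, and ran from 1 to 3 when single libraries were left out. Over all genes that comparison called 1934 to 3514 genes with single libraries left out, the lowest without B6N OFL library 2. The other counts with 1 library left out were 2 to 3 of the 9 genes for the naive strain difference, 7 to 8 for OFL minus naive in AKR, 6 to 7 in B6N and 0 for the interaction. Bst2 and Usp18 gave no OFL strain value under the filter of 1 CPM. Same-numbered libraries did not deviate together (correlations of -0.17 to 0.13). The main fits used no pairing by number, and such correlations could miss a weak one. The replicate block called 6229 genes between the strains in naive and 3021 in OFL libraries, 15766 and 15722 for OFL minus naive in AKR and B6N and 1013 for the interaction, and it changed no call of the 9 genes. No scaling moved the median of all genes by 0.1 log2 units. At 3 to 26 reads a library after OFL, Isg15, Bst2, Usp18 and Irf7 allow only wide intervals.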

Other observations

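Among the Ifi200 genes that did not pass the count filter, Ifi202b and Ifi208 had reads in AKR and none in B6N. Ifi202b had 13 reads in AKR OFL and 0 in B6N OFL libraries, and 12 reads in naive AKR and 0 in naive B6N libraries. Ifi208 had 2 reads in AKR OFL and 0 in B6N OFL libraries, and 7 reads in naive AKR and 0 in naive B6N libraries. Both were chosen after their values were seen. Slfn2, a further schlafen gene also chosen so, averaged 0.359 CPM in AKR OFL and 1.25 CPM in B6N OFL, and 0.438 CPM in naive AKR and 1.72 CPM in naive B6N libraries. Ifit1bl1, a paralog next to Ifit1, differed from it: its strain difference was -0.42 in naive and -0.54 in OFL libraries (log2, edgeR adjusted p = 0.0122 and 0.0143). Ifit1bl2 was higher after OFL by 1.73 in AKR and 0.87 in B6N (log2, edgeR adjusted p = 7.29e-07 and 0.00085), where the 9 interferon response genes were all below 0. It shares 9.16% of the 31-base stretches of Ifit1.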
